A study of Homo sapiens with 6 samples.

Results

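In all, 10 genes picked around MEST were followed in U251 cells, an established human glioblastoma line. They were MEST, its overlapping neighbour COPG2, and the imprinted genes PEG3, PEG10, SGCE, PLAGL1, IGF2, CDKN1C, GRB10 and MEG3. The set was selected on the FPKM values of this same contrast, in which MEST was lower in sh-TRAF2 cells than in sh-NC cells. Their values are therefore given as a description, with no test. Rows were found for 9 of the 10 genes among the 23002 genes of the deposited table, and 8 had a mean FPKM (fragments per kilobase scaled to sequencing depth) of at least 0.5 and entered the fit. PEG3 was not analysed here.

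RNA was sequenced from 2 groups of stably transduced U251 cells. The control cells carried a lentivirus with a non-targeting hairpin (sh-NC, 3 samples), and the knockdown cells carried a lentivirus with a hairpin against TRAF2 (sh-TRAF2, 3 samples). TRAF2 is an adaptor and ubiquitin ligase that relays signals from tumour necrosis factor receptors. Samples are described as biological replicates. The number of transduced lines behind each group is not given, so a difference between hairpins and a difference between lines cannot be told apart. Which TRAF2 hairpin was sequenced is not given in the sources used here. The study selected its stable lines with puromycin. Apart from this selection, no other treatment is given for either group.

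Imprinted genes are expressed mainly from the copy inherited from 1 parent. The choice is set by DNA methylation laid down in the germ line at control regions and kept through cell division by DNMT1, its partner UHRF1, and zinc finger proteins that recruit TRIM28. Many imprinted genes act in fetal growth, and paternally expressed members such as MEST, PEG10, PLAGL1 and IGF2 are often set against maternally expressed ones such as CDKN1C and MEG3. FPKM sums the reads from both copies, so none of the values below shows which copy was read.

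MEST spans 130486171 to 130506465 of chromosome 7 (plus strand), and COPG2 spans 130506238 to 130668748 (minus strand) (GENCODE 29, GRCh38). The build behind the deposited values is not given in the sources used here. The 3′ ends of the 2 genes overlap by 228 bases, all exonic in both, which is 4.76% of the exonic bases of MEST and 5.51% of those of COPG2. PEG10 (94656325 to 94669695, plus strand) and SGCE (94524204 to 94656572, minus strand), on the same chromosome, overlap at their 5′ ends by 248 bases, of which 219 are exonic in both. Use of strand in counting is not stated, so reads in these overlaps cannot be assigned to 1 gene with certainty.

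The 2 TRAF2 hairpin targets of the study are shown because 1 of them shares a stretch of 7 letters with the MEST and GRB10 transcripts. Capitals mark ATTCCAC, which was looked up because an earlier look at these data had singled it out. It spans bases 10 to 16 of the 21 of sh-TRAF2#1. The capitals mark shared letters only, and an effect of a hairpin on MEST or GRB10 was not tested.
sh-TRAF2#1: cccttgcagATTCCACgccat
sh-TRAF2#2: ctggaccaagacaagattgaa
MEST: gttgtgtATTCCACttaggaa
GRB10: gctgggaATTCCACctgagaa
TRAF2: cttgcagATTCCACgccatcg
Each whole target was found in the transcripts of 1 gene only, TRAF2. The MEST match lies in the 3′UTR in the last exon, exon 11 of 11, at chromosome 7, 130505111 to 130505117. The GRB10 match lies in the 3′UTR in exon 16 of 16, at chromosome 7, 50590700 to 50590706. The TRAF2 stretch lies in exon 7 of 11 of that transcript. Of 10846 tested genes with an annotated 3′UTR, 1153 (10.6%) held ATTCCAC on the transcript strand in their longest one, against 2 of 7 of the chosen genes. One of those, MEST, was lower in sh-TRAF2 and the other, GRB10, was higher.

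An intron of MEST also holds the microRNA gene MIR335, whose products were not measured by these libraries. Its mature sequences are shown, from RefSeq (GRCh38.p14), because they come from within the gene that differed most. Capitals here mark the seed, bases 2 to 8, unlike in the hairpin targets above.
hsa-miR-335-5p: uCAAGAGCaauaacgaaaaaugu
hsa-miR-335-3p: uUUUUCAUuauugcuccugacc
The first lies at chromosome 7, 130496126 to 130496148, and the second at 130496162 to 130496183, both on the plus strand as MEST is.

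The reads recovered from the FPKM steps came to between 33999558 and 36823562 per sample, and no 2 replicates were as close as counting alone would make them (chi-square of 5.01 to 12.2 per gene). TRAF2 was 15.1, 18.4 and 15.3 FPKM in sh-NC replicates 1, 2 and 3, and 3.26, 3.22 and 3.33 FPKM in those of sh-TRAF2. The targeted gene was thus lower in every knockdown sample (log2 fold change -2.27, standard error 0.079, limma adjusted p = 1.16e-06). Of 9 glioma and astroglial markers in the table, 6 had a mean over 5 FPKM (VIM, NES, CD44, SOX2, EGFR and SLC1A3), while GFAP ran from 0.334 to 1.62 FPKM and S100B from 0 to 0.0228 FPKM. The summed level of this list was 1470 to 1550 FPKM in sh-NC and 1810 to 1850 FPKM in sh-TRAF2, without overlap. Most of this sum was VIM, which ran from 1210 to 1610 FPKM over the 6 samples. The sum therefore does not show that the listed genes rose together. The summed level of the immune list was 0.481 to 0.796 FPKM in sh-NC and 0.378 to 0.683 FPKM in sh-TRAF2, and that of the epithelial list 0.081 to 0.249 and 0.178 to 0.464 FPKM. The endothelial list summed to 3.33 to 3.4 FPKM in sh-NC and 3.66 to 4.31 FPKM in sh-TRAF2, nearly all of it KDR. The neuron list summed to 25.4 to 28.6 FPKM in sh-NC and 15.7 to 16.8 FPKM in sh-TRAF2, with SYT1 the 1 gene of the list over 5 FPKM. The part of these markers in the results below was not tested.

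MEST (NCBI Gene 4232), a paternally expressed gene for a protein of the alpha/beta hydrolase fold family, was 7.79, 7.87 and 7.22 FPKM in sh-NC replicates 1, 2 and 3. In the sh-TRAF2 replicates, in the same order, it was 2.81, 2.89 and 2.41 FPKM. All 3 knockdown samples were low, and the groups were far apart. The recovered reads were 1045, 1060 and 1010 in sh-NC and 368, 374 and 319 in sh-TRAF2. The mean FPKM was 7.62 ± 0.356 for sh-NC against 2.71 ± 0.256 for sh-TRAF2 (SD, n = 3 each), lower by 64.5%. On the log2(FPKM + 0.1) scale the fold change was -1.46 with a standard error of 0.081, which is the 15th lowest of 11870 genes. In bulk RNA, fewer cells with MEST transcripts and fewer transcripts per cell cannot be told apart.

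COPG2 (26958), which encodes the gamma-2 subunit of the COPI coat of Golgi vesicles, was 8.60, 8.16 and 8.58 FPKM in sh-NC replicates 1, 2 and 3. In the sh-TRAF2 samples it was 6.94, 7.01 and 6.73 FPKM. The knockdown samples were all below the control samples, by much less than for MEST. The mean was 8.44 ± 0.247 FPKM in sh-NC and 6.9 ± 0.143 FPKM in sh-TRAF2 (SD, n = 3 each), lower by 18.3%, with a log2 fold change of -0.29 (standard error 0.051).

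The level of MEST relative to COPG2 was 0.906, 0.964 and 0.841 in sh-NC replicates 1, 2 and 3, and 0.404, 0.413 and 0.359 in those of sh-TRAF2. The 2 overlapping genes were at nearly the same FPKM in control cells, and MEST was well under its neighbour in every knockdown sample. The mean ratio was 0.904 ± 0.0615 for sh-NC against 0.392 ± 0.0292 for sh-TRAF2 (SD, n = 3 each). The log2 fold change of MEST minus that of COPG2, on the log2(FPKM + 0.1) scale, was -1.18. Leaving out each sample in turn gave differences from -1.23 to -1.12.

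**Figure D1:**
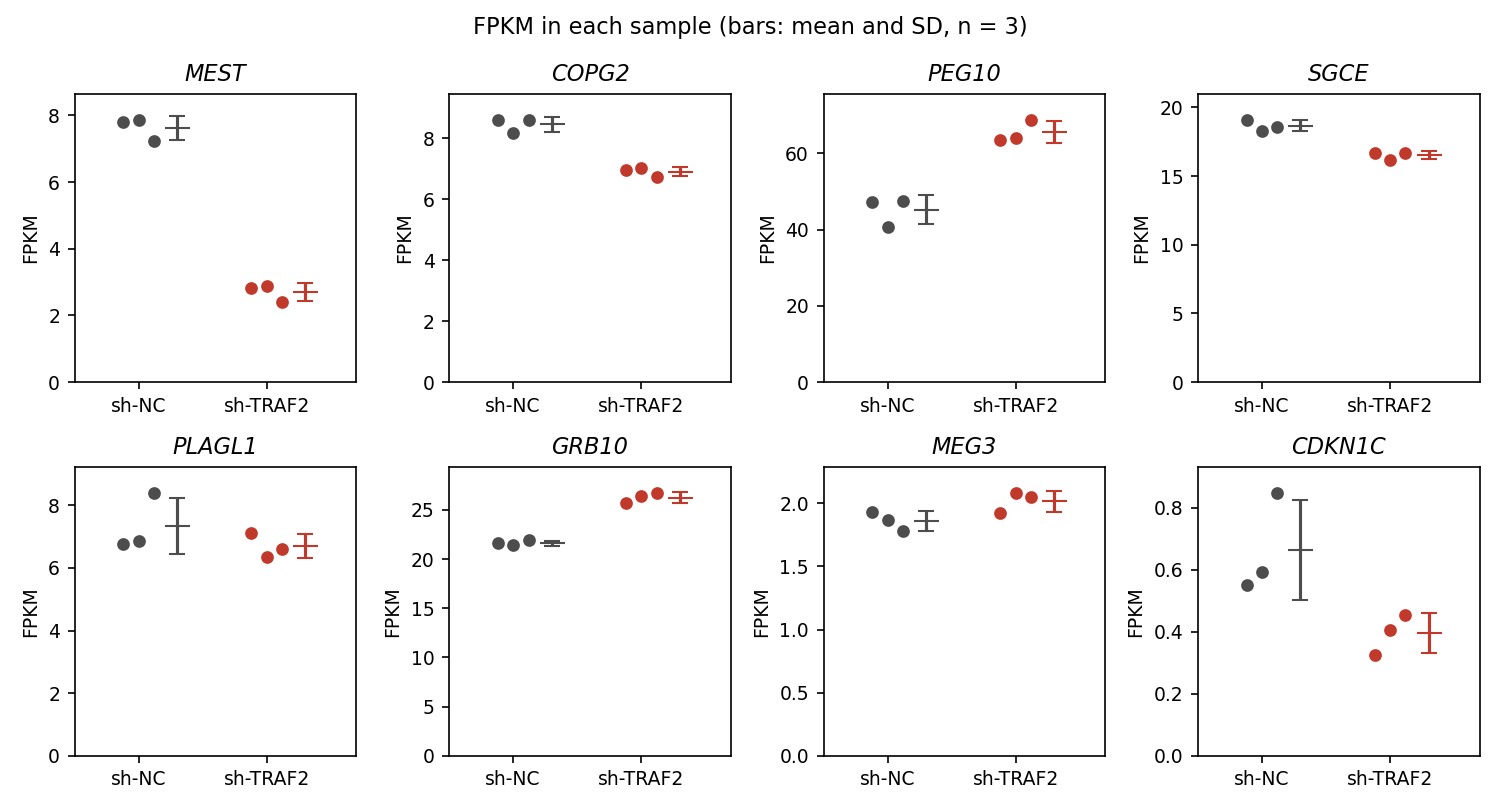
FPKM (vertical axis, from 0) of 8 chosen genes in each sh-NC (grey) and sh-TRAF2 (red) sample. Points are samples and bars are the mean and SD of 3 samples. MEST sits at 7.22 to 7.87 FPKM in sh-NC and at 2.41 to 2.89 FPKM in sh-TRAF2, while the groups overlap for PLAGL1 and MEG3.

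PEG10 and SGCE share a start region and are both paternally expressed, and their values went opposite ways. PEG10 (23089), a gene derived from a retrotransposon and needed for the placenta, was 47.3, 40.8 and 47.6 FPKM in sh-NC replicates 1, 2 and 3. In the sh-TRAF2 samples it was 63.6, 64.0 and 68.8 FPKM. Every knockdown sample was above every control sample. The mean was 45.2 ± 3.86 FPKM in sh-NC and 65.5 ± 2.89 FPKM in sh-TRAF2 (SD, n = 3 each), a ratio of 1.45 and a log2 fold change of 0.54 (standard error 0.065).

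SGCE (8910), which encodes epsilon-sarcoglycan and is mutated in myoclonus-dystonia, was 19.1, 18.3 and 18.6 FPKM in sh-NC replicates 1, 2 and 3. In the sh-TRAF2 samples it was 16.7, 16.2 and 16.7 FPKM. The knockdown samples were all lower by a small margin, 11.4% of the mean, and the log2 fold change was -0.17 (standard error 0.041). The ratio of PEG10 to SGCE was 2.48, 2.23 and 2.56 in sh-NC and 3.80, 3.94 and 4.13 in sh-TRAF2. It was thus higher in every knockdown sample, with a mean of 2.42 ± 0.169 in sh-NC and 3.96 ± 0.167 in sh-TRAF2 (SD, n = 3 each).

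**Figure D2:**
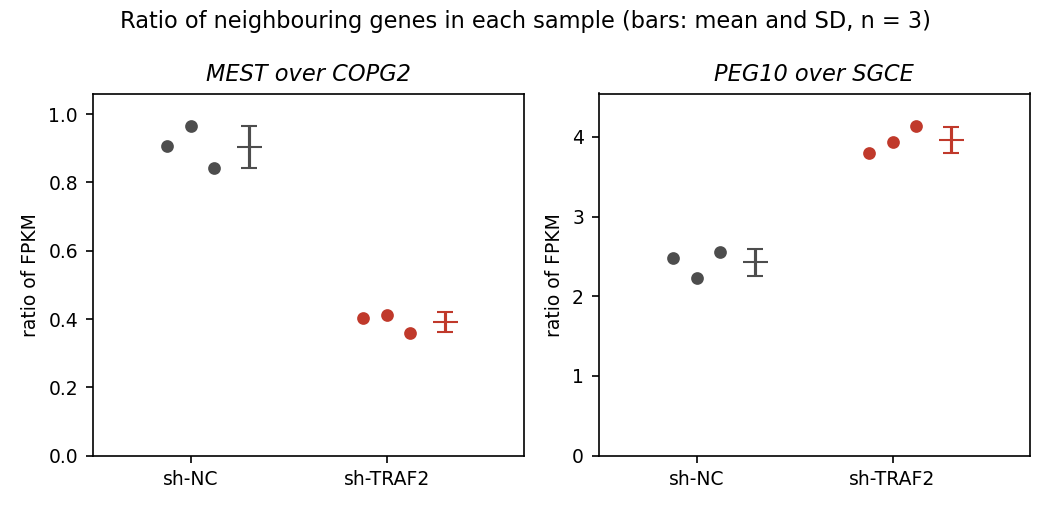
Ratio of the FPKM of 2 overlapping genes (vertical axis, from 0) in each sample, for MEST over COPG2 and PEG10 over SGCE. Points are samples and bars are the mean and SD of 3 samples. The first ratio is 0.841 to 0.964 in sh-NC and 0.359 to 0.413 in sh-TRAF2, and the second is 2.23 to 2.56 and 3.80 to 4.13.

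GRB10 (2887) encodes an adaptor that binds the insulin and IGF1 receptors and dampens their signal, and the parental copy in use differs between tissues. It was 21.6, 21.4 and 21.9 FPKM in sh-NC replicates 1, 2 and 3, and 25.7, 26.4 and 26.7 FPKM in those of sh-TRAF2. All knockdown samples were higher, and the spread within each group was small. The mean was 21.6 ± 0.259 FPKM in sh-NC and 26.3 ± 0.533 FPKM in sh-TRAF2 (SD, n = 3 each), with a log2 fold change of 0.28 (standard error 0.039).

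CDKN1C (1028), a maternally expressed inhibitor of cyclin-dependent kinases, was near the filter on low values. It was 0.55, 0.591 and 0.846 FPKM in sh-NC replicates 1, 2 and 3, and 0.326, 0.406 and 0.455 FPKM in those of sh-TRAF2. The knockdown samples were all lower, and sh-NC replicate 3 stood above the other controls. These values rest on 38, 41 and 61 reads in sh-NC and 22, 27 and 31 reads in sh-TRAF2. Its log2 fold change was -0.61 (standard error 0.22), and -0.44 without sh-NC replicate 3. The gene passed the filter through its sh-NC level of 0.662 FPKM, since its sh-TRAF2 mean was 0.396 FPKM.

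PLAGL1 (5325), a paternally expressed zinc finger transcription factor, was 6.77, 6.87 and 8.39 FPKM in sh-NC replicates 1, 2 and 3. In the sh-TRAF2 samples it was 7.12, 6.36 and 6.61 FPKM. The groups overlapped, and sh-NC replicate 3 was the highest of the 6 samples. The log2 fold change was -0.13 (standard error 0.09), and -0.03 without that sample.

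MEG3 (55384), a maternally expressed long non-coding RNA, was 1.93, 1.87 and 1.78 FPKM in sh-NC replicates 1, 2 and 3, and 1.92, 2.08 and 2.05 FPKM in those of sh-TRAF2. The groups overlapped here too, through 1 knockdown sample below 1 control sample. The log2 fold change was 0.11 (standard error 0.086). IGF2 (3481), a paternally expressed fetal growth factor, had 4, 0 and 1 reads in sh-NC replicates 1, 2 and 3 and 1, 1 and 0 reads in those of sh-TRAF2. At this depth it was at the edge of detection in both groups, and no fold is given.

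Of the 8 chosen genes in the fit, 4 had every sh-TRAF2 sample below every sh-NC sample (MEST, COPG2, SGCE and CDKN1C), 2 had every sh-TRAF2 sample above (PEG10 and GRB10), and 2 overlapped. Groups did not overlap for 55.5% of all genes tested, so 6 of 8 is given as a description only. An absolute log2 fold change above 1 with an adjusted p under 0.05 was met by 1.72% of all genes (0.733% lower and 0.986% higher) and by 1 chosen gene, MEST, which was picked for it.

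The order of the levels changed at 1 place. In sh-NC the mean FPKM ran from PEG10 (45.2) through GRB10 (21.6), SGCE (18.7), COPG2 (8.44), MEST (7.62), PLAGL1 (7.34), MEG3 (1.86) and CDKN1C (0.662) to IGF2. MEST and PLAGL1 overlapped in sh-NC, while the other neighbours in this order did not. In sh-TRAF2, MEST (2.71) came after PLAGL1 (6.7) and above MEG3 (2.02), with no overlap with either. COPG2 (6.9) and PLAGL1 overlapped there.

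To see whether other genes around MEST moved, the 5 nearest tested genes on each side were read, apart from COPG2. Of these 10 genes, 2 fell and 4 rose at an adjusted p under 0.05, against 20.9% and 23.7% of all genes tested. CPA4, a carboxypeptidase gene that has been reported as imprinted, was 31.7, 34.7 and 32.1 FPKM in sh-NC replicates 1, 2 and 3, and 17.5, 15.5 and 15.4 FPKM in those of sh-TRAF2. Its knockdown samples were all far below the controls, and it fell with a log2 fold change of -1.02 (standard error 0.062, limma adjusted p = 1.23e-05). CEP41, which encodes a centrosomal protein and lies between CPA4 and MEST, fell from 1.91 ± 0.0611 to 1.38 ± 0.0714 FPKM (SD, n = 3 each; log2 fold change -0.44, limma adjusted p = 0.00574).

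On the far side of COPG2, the non-coding RNA genes LINC-PINT and LINC00513 both rose. LINC00513 was 0.86, 1.12 and 0.938 FPKM in sh-NC replicates 1, 2 and 3, and 2.49, 3.02 and 2.95 FPKM in those of sh-TRAF2, from 29 to 38 reads and 82 to 98 reads. Its groups were well apart, and the log2 fold change was 1.45 (standard error 0.13, limma adjusted p = 7.11e-05), or 0.95 with a pseudocount of 1. LINC-PINT rose from 1.82 ± 0.199 to 2.61 ± 0.309 FPKM (SD, n = 3 each; log2 fold change 0.50, limma adjusted p = 0.00858). Without stated strand use, reads of overlapping non-coding genes in this stretch are uncertain.

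On the other side of MEST, beyond CPA4, ZC3HC1 and TMEM209 rose by the same log2 fold change of 0.22 (limma adjusted p = 0.00929 and 0.0103). Both encode proteins of the nuclear envelope. The other 4 neighbours did not pass the test. Their log2 fold changes were 0.02 for KLHDC10, 0.11 for MKLN1, -0.24 for MKLN1-AS and 0.06 for PODXL (limma adjusted p = 0.754, 0.13, 0.159 and 0.677).

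**Figure D3:**
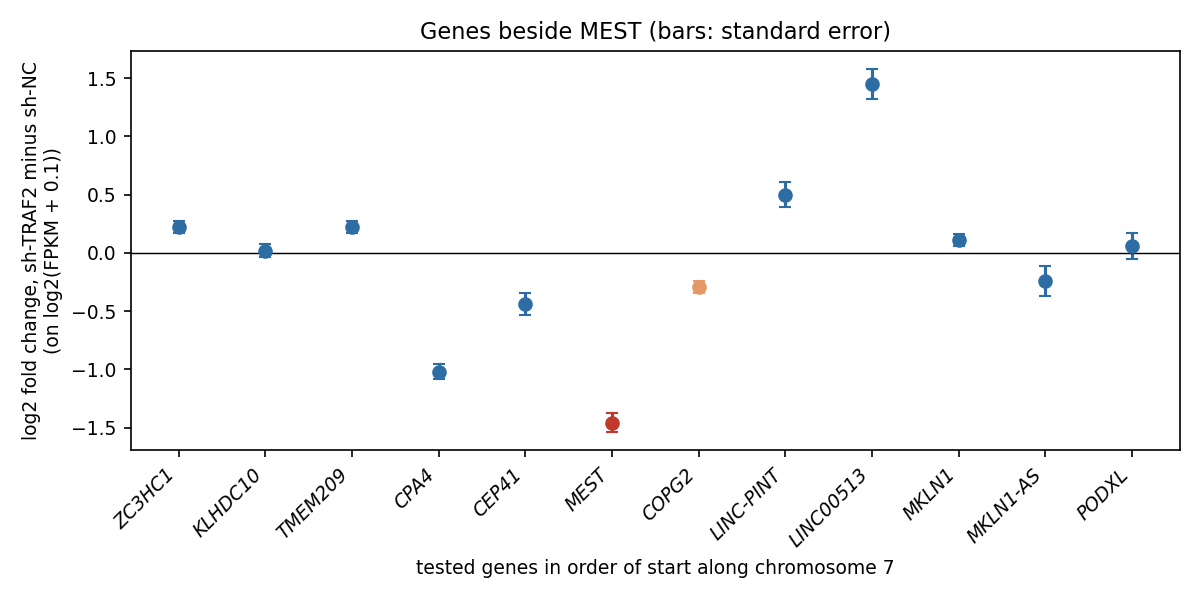
Log2 fold change on log2(FPKM + 0.1), sh-TRAF2 minus sh-NC (vertical axis), of tested genes in order of their start along chromosome 7 (horizontal axis, not to distance). Points are fitted values and bars are standard errors, with MEST in red and COPG2 in orange. CPA4 (-1.02) and MEST (-1.46) are the lowest and LINC00513 (1.45) the highest, with COPG2 at -0.29 beside MEST.

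A wider list of 84 genes reported as imprinted in some tissue, leaving out the 10 chosen ones, had 64 genes in the table and 33 above the filter. Of these 33, 15 fell and 5 rose at an adjusted p under 0.05, and 13 passed in neither direction. That is 45.5% lower and 15.2% higher, against 20.9% and 23.7% of all genes tested, and the median log2 fold change was -0.14 against 0.019 over all genes. The falls numbered 10 with no filter and 11 or 12 with each sample left out, against 15. Fewer of all genes passed as well, 4282 to 5056 with a sample left out against 5297. Of the list, CPA4 alone passed the fold threshold as well. It came just under that threshold without sh-NC replicate 2 (-0.98), without sh-TRAF2 replicate 2 or 3 (-0.99), and with a pseudocount of 1 (-0.98).

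The largest rise on the list was PHLDA2, a maternally expressed gene that limits placental growth. It was 75.8, 77.2 and 59.9 FPKM in sh-NC replicates 1, 2 and 3, and 143, 130 and 134 FPKM in those of sh-TRAF2. All knockdown samples were high, with a log2 fold change of 0.94 (standard error 0.091, limma adjusted p = 0.000122). Its neighbour SLC22A18, a transporter gene of the same imprinted cluster as CDKN1C, went the other way, at 5.14, 4.93 and 5.86 FPKM in sh-NC and 3.45, 3.16 and 3.61 FPKM in sh-TRAF2. Every knockdown sample was lower (log2 fold change -0.62, limma adjusted p = 0.000621), and its antisense partner SLC22A18AS also fell (-0.19, limma adjusted p = 0.0328), with the reads of the pair uncertain for the reason given above.

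DIRAS3, a paternally expressed Ras-family gene known as a growth suppressor, was 3.01, 2.79 and 3.38 FPKM in sh-NC replicates 1, 2 and 3, and 5.59, 4.92 and 4.95 FPKM in those of sh-TRAF2. It rose in every knockdown sample, with a log2 fold change of 0.73 (limma adjusted p = 0.000338).

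Several listed genes lie in the Prader-Willi and Angelman region. UBE3A, the ubiquitin ligase gene whose maternal copy is lost in Angelman syndrome, rose from 9.24 ± 0.395 to 12.4 ± 0.122 FPKM (SD, n = 3 each; log2 fold change 0.42, limma adjusted p = 0.000305). PWAR6 fell from 0.886 ± 0.227 to 0.469 ± 0.0626 FPKM (SD, n = 3 each; log2 fold change -0.77, limma adjusted p = 0.0148). It passed the filter through its sh-NC level only, and the change was -0.35 with a pseudocount of 1. SNRPN, MKRN3 and IPW did not pass the test, with log2 fold changes of 0.24, 0.15 and -0.32 (limma adjusted p = 0.288, 0.342 and 0.0676).

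The remaining named genes of the list came from other regions. The transcription factor gene GLIS3 fell (-0.52, limma adjusted p = 0.000203), while the primase subunit gene PRIM2 rose (0.43, limma adjusted p = 0.000704). RASGRF1, a Ras exchange factor gene, also rose (0.39, limma adjusted p = 0.0167), a call lost without sh-NC replicate 1 or sh-TRAF2 replicate 2 and with no filter on low values. GNAS, the stimulatory G protein alpha subunit, was 156 ± 2.61 FPKM in sh-NC and 152 ± 0.483 FPKM in sh-TRAF2 (SD, n = 3 each; log2 fold change -0.04, limma adjusted p = 0.311). H19, IGF2-AS, NDN and MAGEL2 had mean levels from 0 to 0.00498 FPKM in the 2 groups.

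**Figure D4:**
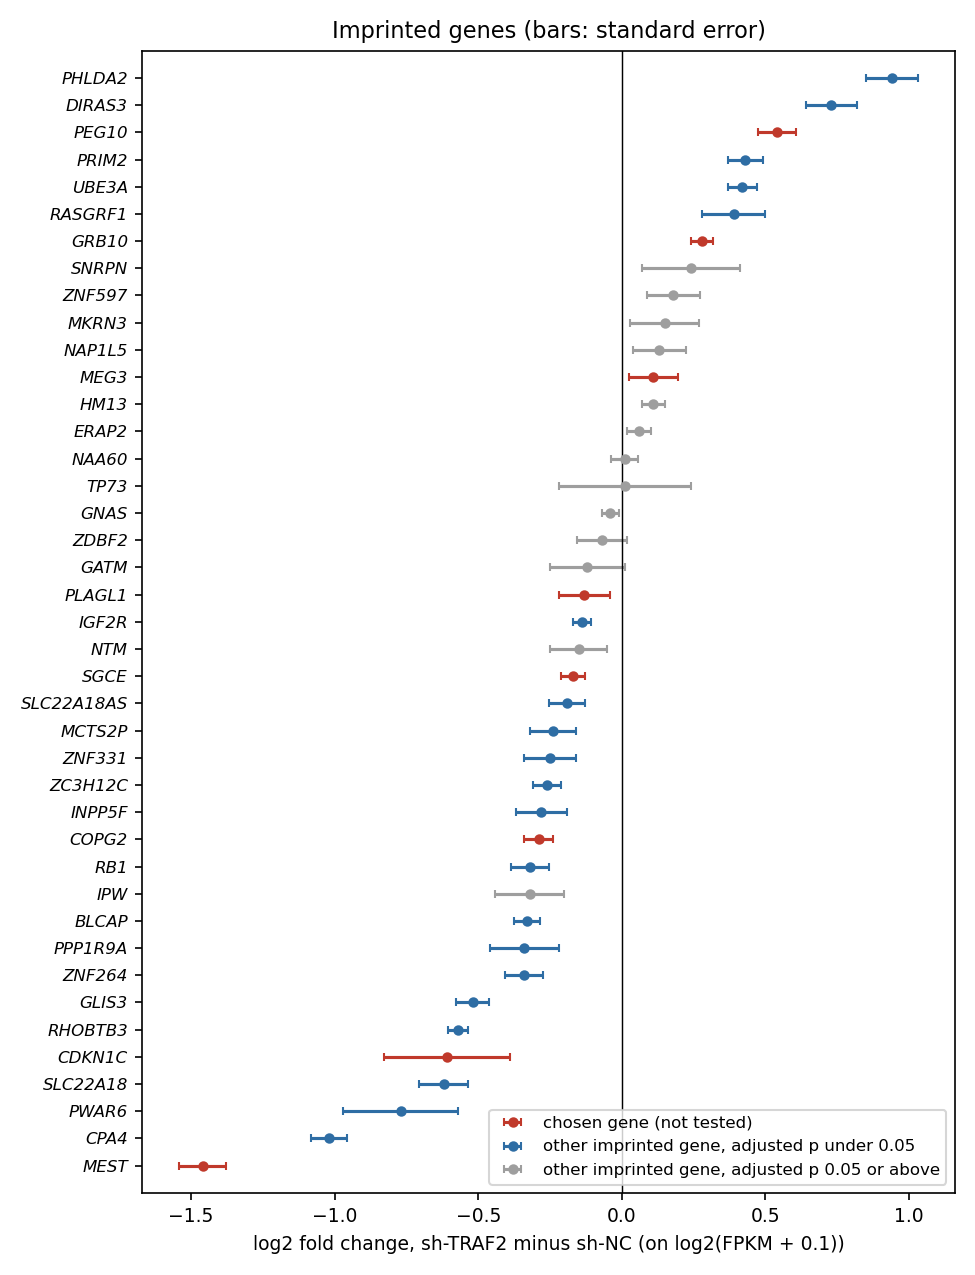
Log2 fold change on log2(FPKM + 0.1), sh-TRAF2 minus sh-NC (horizontal axis), of 8 chosen genes (red) and 33 other imprinted genes (blue with an adjusted p under 0.05, grey otherwise), sorted. Points are fitted values and bars are standard errors. MEST at -1.46 and CPA4 at -1.02 lie at the low end and PHLDA2 at 0.94 at the high end.

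IGF2 and GRB10 act in insulin-like growth factor signalling, in which ligands bind IGF1R, are cleared by IGF2R, and are held by binding proteins that proteases cut. Of 17 further genes of this pathway above the filter, 4 fell and 3 rose at an adjusted p under 0.05. These shares, 23.5% and 17.6%, lie near those of all genes tested (20.9% and 23.7%), and the median log2 fold change was -0.04. The receptor IGF1R fell from 6.43 ± 0.177 to 5.27 ± 0.32 FPKM, and the clearance receptor IGF2R from 86.6 ± 1.02 to 78.4 ± 0.899 FPKM (SD, n = 3 each; limma adjusted p = 0.00701 and 0.00629). HTRA1, a protease that cuts IGF-binding proteins, was 18.1, 15.8 and 17.1 FPKM in sh-NC replicates 1, 2 and 3, and 10.6, 10.7 and 11.8 FPKM in those of sh-TRAF2. It was lower in every knockdown sample (log2 fold change -0.62, limma adjusted p = 0.000189).

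STC2, which inhibits the protease that frees IGF from its binding proteins, fell from 176 ± 8.39 to 138 ± 2.24 FPKM (SD, n = 3 each; log2 fold change -0.35, limma adjusted p = 0.00026). The binding protein gene IGFBP4 rose from 0.798 ± 0.0745 to 1.39 ± 0.332 FPKM (SD, n = 3 each; log2 fold change 0.71, limma adjusted p = 0.0141), a call lost without sh-TRAF2 replicate 2 or 3 and with no filter. The other rises were IGF2BP2 and IGF2BP3, proteins that bind the IGF2 messenger RNA (log2 fold change 0.15 and 0.18, limma adjusted p = 0.0149 and 0.0366). The number of rises depended on single samples, with 5 without sh-NC replicate 3 and 1 without sh-TRAF2 replicate 2 or 3. In the same sh-NC replicate 3, IGFBP5 was 13.1 FPKM, against 2.42 and 0.654 FPKM in the other controls. The ligand IGF1 was listed at 0.0105 and 0.0108 FPKM on average in sh-NC and sh-TRAF2.

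COPG2 was also read beside the rest of its coat complex and ARF1, the GTPase of the coat and not a subunit. Of 8 further genes of this list above the filter, 6 rose and 1 fell at an adjusted p under 0.05. That is 75.0% and 12.5%, against 23.7% and 20.9% of all genes tested. ARF1 is among the rises (log2 fold change 0.10, limma adjusted p = 0.0227). The median log2 fold change was 0.26, against 0.019 over all genes. COPG1, which encodes the gamma-1 subunit that can take the place of gamma-2, was 41.8, 42.3 and 41.8 FPKM in sh-NC replicates 1, 2 and 3, and 50.8, 54.0 and 52.2 FPKM in those of sh-TRAF2. It rose in every knockdown sample (log2 fold change 0.32, limma adjusted p = 0.000288), beside the lower COPG2. The epsilon subunit gene COPE rose from 88.7 ± 1.67 to 147 ± 7.49 FPKM and the zeta-1 gene COPZ1 from 42.0 ± 0.262 to 56.9 ± 2.4 FPKM (SD, n = 3 each; limma adjusted p = 1.08e-05 and 9.84e-05). ARCN1, the delta subunit, was the 1 that fell, from 61.4 ± 0.933 to 52.2 ± 1.48 FPKM (SD, n = 3 each; limma adjusted p = 0.00122).

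Genes that maintain imprints were read as a further list, of which 4 of 10 above the filter rose and 2 fell at an adjusted p under 0.05. Of all genes tested, 23.7% rose and 20.9% fell, and the median log2 fold change of the list was 0.01. UHRF1, which brings DNMT1 to newly copied DNA, was 5.18, 4.62 and 4.37 FPKM in sh-NC replicates 1, 2 and 3, and 8.83, 9.09 and 9.75 FPKM in those of sh-TRAF2. It rose in all 3 knockdown samples (log2 fold change 0.95, standard error 0.075, limma adjusted p = 4.19e-05). DNMT1, the maintenance methyltransferase, rose from 40.0 ± 2.02 to 56.0 ± 1.73 FPKM, and the co-repressor gene TRIM28 from 71.6 ± 4.98 to 89.0 ± 0.816 FPKM (SD, n = 3 each; limma adjusted p = 0.000117 and 0.00139). ZNF202 also rose (log2 fold change 0.44, limma adjusted p = 0.0032), while CTCF, the insulator protein of several imprinted regions, fell (-0.20, limma adjusted p = 0.00679). ZFP57, a zinc finger protein that binds methylated TGCCGC at imprinted regions, averaged 0.0257 FPKM in sh-NC and 0.0267 FPKM in sh-TRAF2. ZNF445, another zinc finger protein of the list, averaged 1.83 and 1.88 FPKM (log2 fold change 0.03, limma adjusted p = 0.761). DNA methylation was not measured.

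The letters TGCCGC, on either strand, were counted in RefSeq promoter windows (GRCh38.p14), each from 250 bases before to 50 after a start. Windows were at hand for 5 of the 10 chosen genes, with none for PEG10, SGCE, IGF2, CDKN1C or PEG3. TGCCGC was in 4 of 5 MEST windows, some of which overlap, in 3 of 3 overlapping MEG3 windows, in 1 of 5 GRB10 windows and in 1 of 5 PLAGL1 windows. The single COPG2 window held none. Of all 35116 windows, 16.7% held them. CpG counts were 13 to 25 in the MEST windows and 37 in the COPG2 window, against a median of 14 over all windows. The counts were 3 to 49 for GRB10, 2 to 39 for PLAGL1 and 17 to 19 for MEG3.

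Among the 3 other inhibitor genes of cyclin-dependent kinases that were tested, CDKN1A and CDKN1B fell slightly and CDKN2D, of a different family, rose. That is 66.7% lower and 33.3% higher, against 20.9% and 23.7% of all genes tested. The log2 fold changes of the 3 genes were -0.15, -0.20 and 0.35 (limma adjusted p = 0.0274, 0.0299 and 0.00749). The calls of CDKN1A and CDKN1B were each lost in 6 of 15 alternative fits. Of 6 genes of the sarcoglycan complex around SGCE, 1 rose and 1 fell, or 16.7% each way, against 23.7% and 20.9% of all genes tested. UTRN, the dystrophin relative utrophin, rose from 7.71 ± 0.416 to 11.4 ± 0.437 FPKM, and the beta-sarcoglycan gene SGCB fell from 34.4 ± 0.542 to 31.1 ± 0.607 FPKM (SD, n = 3 each; limma adjusted p = 0.000163 and 0.013). The call of SGCB was lost without sh-NC replicate 1.

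The 5 tested genes with the profile nearest to that of MEST over the 6 samples were GOLGA7, STRADB, PAX8, ITGB3 and SFXN1. Likeness was the Euclidean distance between log2(FPKM + 0.1) values after the sh-NC mean of each gene was subtracted, and the distances ran from 0.20 to 0.37. GOLGA7 was 44.6, 41.8 and 42.9 FPKM in sh-NC replicates 1, 2 and 3, and 15.6, 15.6 and 15.3 FPKM in those of sh-TRAF2, so its samples split as those of MEST did. The log2 fold changes of the 5 genes lay between -1.53 and -1.30. They are given as a description, since the choice used the same contrast.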

How the data were processed

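Messenger RNA was sequenced in 3 sh-NC and 3 sh-TRAF2 samples, grouped by their labels. The authors deposited 1 table of FPKM values per gene and sample. The submitters' processing notes name HISAT2, HTSeq, DESeq2 and R 3.2.0, with no role, build or strand setting. From the deposited FPKM, log2(FPKM + 0.1) was compared with limma 3.58.1 in R 4.3.3 (eBayes with a trend, two-sided) for genes with a mean of at least 0.5 FPKM, with Benjamini-Hochberg adjustment over all 11870. A pseudocount understates the change of low genes. Reads were recovered as the smallest whole numbers behind the FPKM steps, within 0.001 reads, for all 23002 genes, and set to the lowest for the 2643 with reads in 1 sample only. The depth of 33999558 to 36823562 reads per sample leaves values under about 10 reads imprecise, and p-values measure the spread between these samples. The fit was tested on simulated data.

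The 10 chosen genes and the lists were picked with earlier results of these data known. Named are those 10, TRAF2, the MEST neighbours, the 5 nearest profiles, and listed genes with an adjusted p under 0.05 and groups that did not overlap, ranked by size of change (at most 10 of the imprinted list and 3 of each other). Other genes, such as IGF1R, IGF2R, IGFBP5, ARCN1, TRIM28, CTCF, SNRPN and GNAS, were named after their values were seen. A gene that the rule names is not reported here. In 15 alternative fits, the pseudocount was 1 or 0.01, the filter was dropped or raised to a mean of 1 FPKM, or the choice changed was TPM rescaling, quantile normalization, the replicate block, no trend, limma-voom on recovered reads (mean of at least 10) and each sample left out. Positions and transcripts came from GENCODE 29, and hairpin targets from the study's supplementary information. Python 3.11.15, numpy 2.4.6, pandas 2.3.3 and matplotlib 3.10.9 were used.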

Additional observations from a re-analysis of the deposited data

How the results depend on the processing

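Under the 15 alternatives no called value changed sign; KLHDC10 and PODXL, which passed no test, did in some. With a pseudocount of 1, the log2 fold change of MEST was -1.22, that of MEST minus COPG2 was -0.96, and that of CDKN1C was -0.25; the genes past both thresholds numbered 46 higher and 41 lower, against 117 and 87 with a pseudocount of 0.1. A larger pseudocount shrinks fold changes by construction. Limma-voom on the recovered reads called 239 higher and 174 lower, among 14130 genes tested. Rises in the insulin-like growth factor list numbered 1 with no filter and 1 to 5 with each sample left out, against 3. Quantile normalization gave GRB10 0.25. Among 39 named genes outside the 10 chosen ones, 565 of 584 comparisons kept their side of the threshold, and 19 calls were lost, those of CDKN1A, CDKN1B, IGFBP4, RASGRF1 and SGCB. The cause was not tested. The median log2 fold change of all genes stayed between 0 and 0.025.

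The replicate number was also tried as a block. Deviations from the group mean had correlations of -0.081, 0.072 and 0.073 between samples of the same number. Between samples of different numbers they ran from -0.141 to 0.067. With 3 samples per group, these values cannot decide whether the numbers pair the samples. With the block, 120 genes were called higher and 88 lower, and MEST stayed at -1.46. Depth limits IGF2 and CDKN1C most.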

Other observations

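Of the wider imprinted list, 31 genes of the deposited data stood under the filter on low values and entered no comparison. NNAT, a paternally expressed brain gene, averaged 0.00743 FPKM in sh-NC and 0.153 FPKM in sh-TRAF2, and the long non-coding KCNQ1OT1 0.0303 and 0.0452 FPKM. Levels were higher in all 3 sh-TRAF2 samples for both, and for PEG13 at no more than 5 reads per sample. TRAPPC9 went the other way, averaging 0.407 FPKM in sh-NC and 0.238 FPKM in sh-TRAF2, with every sh-TRAF2 sample lower. Groups did not overlap for 55.5% of all genes tested, and the share under the filter was not counted. The NNAT values rest on 1, 0 and 0 reads in sh-NC replicates 1, 2 and 3, and 5, 11 and 4 reads in those of sh-TRAF2. COPZ2, a COPI gene under the filter, averaged 0.561 FPKM in sh-NC and 0.291 FPKM in sh-TRAF2, with every sh-TRAF2 sample lower. These values were chosen after they were seen.

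In all, 3 secreted-factor genes of the insulin-like growth factor list varied within sh-NC by more than they differed between groups. IGFBP3 was 7.68 ± 5.61 FPKM in sh-NC and 7.30 ± 1.22 FPKM in sh-TRAF2 (SD, n = 3 each). STC1 was 7.34, 4.10 and 15.6 FPKM in sh-NC replicates 1, 2 and 3, and 10.5, 13.2 and 12.5 FPKM in those of sh-TRAF2. IGFBP5 was 2.42, 0.654 and 13.1 FPKM in sh-NC and 4.07, 6.10 and 4.18 FPKM in sh-TRAF2. All 3 genes were highest in sh-NC replicate 3 and lowest in sh-NC replicate 2, and none passed the test between groups (limma adjusted p = 0.779, 0.231 and 0.517 for IGFBP3, STC1 and IGFBP5). In the same replicate 3, PLAGL1 and CDKN1C were also the highest of the 6 samples.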
